A study of Mus musculus with 4 samples.

Results

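RNA sequencing of 4 mouse mammary tumor cell lines was examined for the genes of intermediate filaments and lamins. The genes were listed by name and not by a cutoff on their values, though earlier results of these data were known. They were the keratins Krt8, Krt18, Krt19, Krt7, Krt5 and Krt14, vimentin (Vim), nestin (Nes), and the lamins Lmna and Lmnb1. All 10 were present in the table of 21090 genes. Levels are RPKM, in which read counts are divided by the length of the gene and the total of the library, so levels of different genes can be compared. Averaged over the 4 libraries, 7 of the 10 genes reached an RPKM of 1, while Krt19, Krt5 and Krt14 were below it. The lines trace back to a mammary tumor that had spread to the lung, from a mouse carrying Pik3ca H1047R and Trp53 R270H, both switched on by Cre recombinase from the MMTV promoter, which is active mainly in mammary epithelium. The controls were the unedited parental cells (titled 307 cell) and cells with the vector control, called vector cells here (307 cell). The knockouts were cells with a guide RNA to exon 3 of S100a4, called Ex3-KO (307 cell), and cells with a guide RNA to exon 2, called Ex2-KO (titled 308 cell). Guide and Cas9 were delivered by lentivirus with puromycin selection, and no cloning step is named. S100a4 encodes a small calcium-binding protein. Each line gave 1 library (n = 2 controls and n = 2 knockouts), and no separate cultures of a line were sequenced. The p-values are therefore set against the spread between lines of a group, which limma takes in large part from all genes.

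Intermediate filaments are rope-like polymers of the cytoplasm and, as lamins, of the nuclear rim. Keratins are built from pairs of a type I and a type II chain, with Krt8 and Krt18 as the pair of simple epithelium, Krt7 and Krt19 in ducts and luminal cells, and Krt5 and Krt14 as the pair of basal cells. Vim forms the filaments of mesenchymal cells, and its appearance beside or in place of keratins is a classical mark of the epithelial-mesenchymal transition (EMT).

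The totals behind the RPKM values were between 22472024 and 31235456 reads, and intervals below are 95% Wilson intervals of the read counts, which cover counting error only. The targeted gene S100a4 was at 3576 RPKM in parental cells, 4741 in vector cells, 1136 in Ex3-KO and 1105 in Ex2-KO, and the knockout minus control difference was -1.88 in log2 (SE 0.311, limma adjusted p = 0.0731). RNA level does not measure the loss of protein. The study reports protein-truncating mutations in most S100a4 transcripts of the knockout lines, and loss of the protein by Western blot. The labelled mammary origin was compared with cell type markers. Of 6 luminal epithelial markers other than keratins, 1 (Elf3) had a mean RPKM of at least 1, and the epithelial adhesion genes Epcam (0.304 to 0.657) and Cdh1 (0.117 to 0.252) were low in every library. Of 9 fibroblast or mesenchymal markers, 8 had a mean of at least 1 and Lum was at 0. The leukocyte list had 1 of 5 genes at that level (Cd68), with Cd3e at 0 and Ptprc at 0.0101 or less, and the endothelial list had 0 of 5, with Tie1 and Emcn at 0. In bulk RNA, fewer cells of a type and less RNA per cell cannot be told apart.

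The filament RNA of these cells was mostly vimentin. Vim RPKM was 2418 in parental cells, 2060.1 in vector cells, 1362 in Ex3-KO and 1721 in Ex2-KO. Vim made up between 70.5% and 82.4% of the summed RPKM of the 10 genes, and the 6 keratins together between 1.33% and 5.56%. In the controls, Vim ranked 10 among all genes by mean RPKM (2239 ± 253, SD, n = 2). Lmna, the gene of the A-type lamins, followed at 396 ± 70.3 RPKM. Next came Krt8 at 48.3 ± 29.4, Lmnb1 at 35.0 ± 9.82 and Krt18 at 33.1 ± 38.2, which did not differ beyond the spread between the controls. Nes, within the spread of Krt18, was at 11.6 ± 1.002 and Krt7 at 1.29 ± 0.704. In the knockouts the order was Vim (1542 ± 254), Lmna (369.9 ± 84.7), Krt8 (66.8 ± 17.1), Lmnb1 (36.0 ± 11.6), Krt18 (23.2 ± 5.86), Krt7 (13.4 ± 17.4) and Nes (7.27 ± 2.21), and Krt7, high in 1 library, did not differ from either neighbour beyond its spread.

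**Figure D1:**
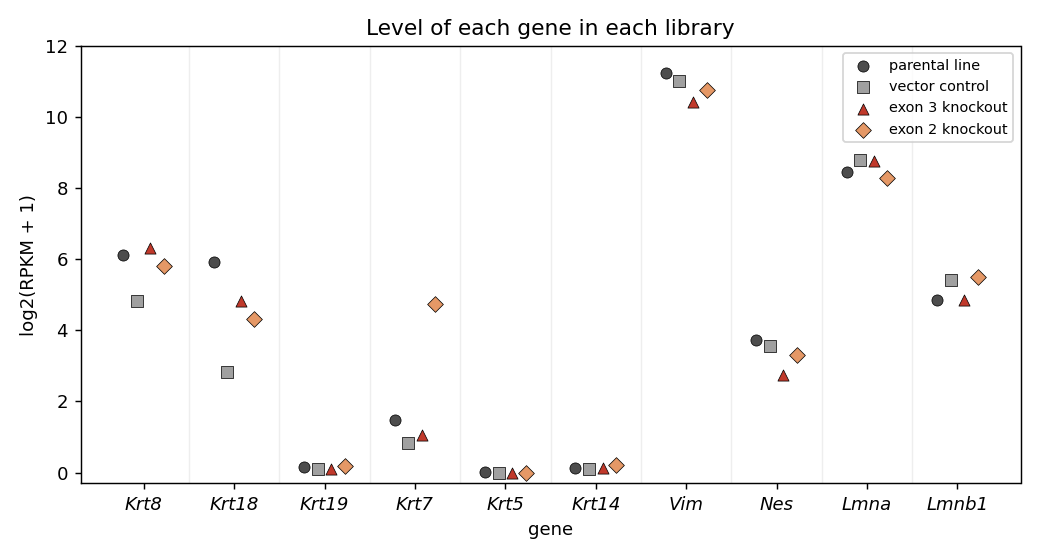
Level of each of the 10 genes, as log2(RPKM + 1), with 1 point per library (2 controls in grey, 2 S100a4 knockouts in red and orange). Vim and Lmna lie highest, Krt19, Krt5 and Krt14 near 0, and Krt7 stands apart in Ex2-KO at 25.7 RPKM.

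Knockouts and controls were compared with limma on log2(RPKM + 1) over the 10871 genes with a mean RPKM of at least 1. Of the 7 filament and lamin genes tested, 0 had an adjusted p under 0.05, where 0.0184% of all tested genes (2 genes) did. At an unadjusted p under 0.05 the count was 0 of 7, where 19.1% of all tested genes passed. The log2 change, knockout minus control, was above 0 for 4 genes and below 0 for 3, with a median of 0.03 against -0.08 over all tested genes. For 4 of the 7 genes (Krt8, Krt18, Lmna and Lmnb1), the change was smaller than the difference between parental cells and vector cells. An exact permutation test of 2 libraries against 2 cannot give a two-sided p below 0.333. The 95% intervals were wide, from -1.40 to 1.79 for Krt18 and from -0.15 to 3.62 for Krt7, and both include differences of either direction. These intervals borrow spread from all genes. With a robust prior the SE rose from 0.727 to 1.49 for Krt18 and from 0.860 to 1.77 for Krt7.

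**Figure D2:**
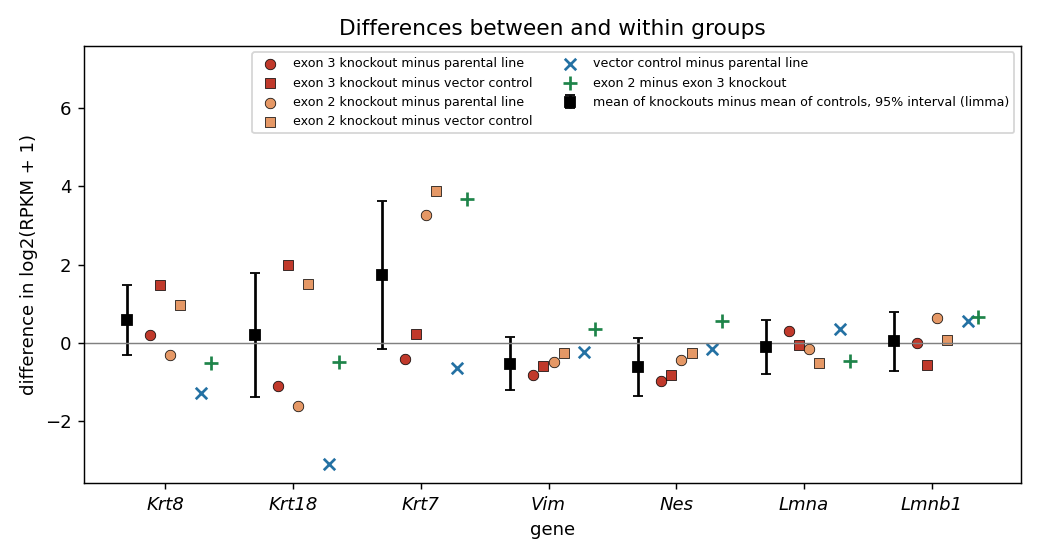
Differences in log2(RPKM + 1) for the 7 genes with a mean RPKM of at least 1. Black squares are the limma estimate with its 95% interval, red and orange points the 4 knockout-to-control pairs, blue crosses vector cells minus parental cells, and green plus signs Ex2-KO minus Ex3-KO. The Vim and Nes points of all 4 comparisons lie below 0, and those of Krt18 lie on both sides.

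Vim, at chromosome 2 from 13573927 to 13582826 (GRCm38, plus strand), and Nes, at chromosome 3 from 87971078 to 87980451 (plus strand), were the genes whose groups did not overlap, both lower in the knockouts. This count of 2 of 7 stands beside 31.2% of all tested genes with both knockouts below both controls. No gene of the 7 (0) had both knockouts above both controls, as 21.9% of all tested genes had. These shares depended on scaling: 26.7% of genes were lower and 28.4% higher after median ratio scaling, 24.0% and 27.7% after quantile normalization, and 20.9% and 26.4% after correction for GC content and length. Vim and Nes stayed below both controls in each of these settings, and Lmna joined them after quantile normalization.

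Every knockout-to-control pair had less Vim in the knockout. The log2 difference from parental cells was -0.83 in Ex3-KO and -0.49 in Ex2-KO, and from vector cells -0.60 and -0.26. The Wilson intervals of the 4 libraries did not touch (1349 to 1374 RPKM in Ex3-KO, 1707 to 1736 in Ex2-KO, 2045 to 2075 in vector cells and 2404 to 2433 in parental cells). The change of the group means was -0.54 (SE 0.310, adjusted p = 0.355 in limma), and after correction for GC content and length it was -0.68 (SE 0.273, adjusted p = 0.365). A marker of macrophages, Cd68, also differed between the groups, at 4.92 and 3.36 RPKM in parental and vector cells and at 11.5 and 13.2 in Ex3-KO and Ex2-KO. Of the other 4 leukocyte markers measured, Cd3e was at 0, Ptprc at 0.0101 RPKM or less and Lyz2 between 0.0716 and 0.597, and Cd79a was lower in the knockouts (0.257 and 0) than in the controls (0.579 and 0.475). The list summed to between 4.20 and 5.57 RPKM in the controls and between 12.2 and 13.8 in the knockouts, nearly all of it Cd68. Its part in the Vim and Nes differences was not tested. Even at its lowest, in Ex3-KO, Vim was 12.7 times the 6 keratins together.

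Nes, a very long filament chain best known from neural and other progenitor cells, followed the same order of libraries at a far lower level. Nes RPKM was 12.3 in parental cells, 10.9 in vector cells, 5.71 in Ex3-KO (750 reads) and 8.84 in Ex2-KO (1111 reads). For both Vim and Nes, Ex3-KO was lowest and the parental cells highest. The change was -0.63 (SE 0.341, adjusted p = 0.334 in limma), and -0.38 (SE 0.290) after the GC and length correction, with a recovered gene length of 5595 bases. Across the alternatives run, Nes lay between -0.90 and -0.35 (adjusted p from 0.298 to 0.829 in limma) and Vim between -0.98 and -0.37 (adjusted p from 0.237 to 0.860).

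Krt8 and Krt18, whose proteins pair in the filaments of simple epithelium, were the best expressed keratins, and of the 7 tested genes they differed most between the 2 controls. Krt8 RPKM was 69.0 in parental cells, 27.5 in vector cells, 78.9 in Ex3-KO and 54.8 in Ex2-KO. Krt18 RPKM was 60.2, 6.10, 27.3 and 19.1 in the same order. For both genes vector cells were lowest and neither group lay apart from the other, since the knockouts lay between the controls for Krt18 and on both sides of parental cells for Krt8.

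The gap between the controls rested on many reads. Krt18 had 3310 reads in parental cells (58.2 to 62.3 RPKM) and 273 in vector cells (5.42 to 6.87 RPKM). Vector minus parental cells was -3.11 in log2(RPKM + 1) for Krt18, which placed it at rank 35 of 10871 tested genes ordered from the lowest, and -1.30 for Krt8. On the RPKM + 1 scale, a difference of at least 2-fold between the controls was found for these 2 of the 7 genes, where 8.53% of all tested genes had one. In plain RPKM, Krt7 (1.79 and 0.795) also differed by more than 2-fold. Other markers moved between the same libraries: the smooth muscle actin gene Acta2 was at 55.2 RPKM in parental cells and 420.1 in vector cells, and Col1a1, a fibrillar collagen chain, at 670.3 and 6.93. The summed level of the 8 mesenchymal markers other than Vim was 1652 and 298 RPKM. This difference lay mostly in Col1a1 and Col1a2 (808 and 149). Pdgfrb (76.1 and 56.8) and Twist1 (72.1 and 59.5) differed less, and Zeb1 alone was higher in vector cells (17.2 and 19.5). The 5 basal markers other than keratins summed to 55.6 and 421, nearly all of it Acta2, and the 6 luminal markers other than keratins to 2.49 and 2.02. The part of these markers in the keratin difference was not tested.

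The choice of control therefore set the sign for Krt18. Against both controls the log2 change was 0.19 (SE 0.727, limma adjusted p = 0.904) for Krt18 and 0.58 (SE 0.413, adjusted p = 0.454) for Krt8. Without parental cells the knockouts were higher, by 1.75 for Krt18 (adjusted p = 0.00266 in limma) and by 1.23 for Krt8 (adjusted p = 0.0208), with the lone control assumed to vary like the knockouts and the spread taken mostly from all genes, so that these p-values say little about the spread of either keratin between lines. Without vector cells Krt18 was at -1.36 (adjusted p = 0.0188 in limma) and Krt8 at -0.069 (adjusted p = 0.937). Over all alternatives the adjusted p ran from 0.00266 to 0.991 for Krt18 and from 0.0208 to 0.937 for Krt8. Krt18 thus had opposite signs against the 2 controls.

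The partners did not keep a fixed ratio. Krt8 RPKM was 1.15 times Krt18 RPKM in parental cells and 4.50 times in vector cells, with 2.89 in Ex3-KO and 2.87 in Ex2-KO. The knockouts were thus nearly alike and lay between the controls. On the log2(RPKM + 1) scale the ratio was higher in the knockouts by 0.39, less than its spread within groups (SD 0.904). Summed over the 6 keratins, RPKM was 131 in parental cells, 34.5 in vector cells, 107 in Ex3-KO and 99.8 in Ex2-KO.

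**Figure D3:**
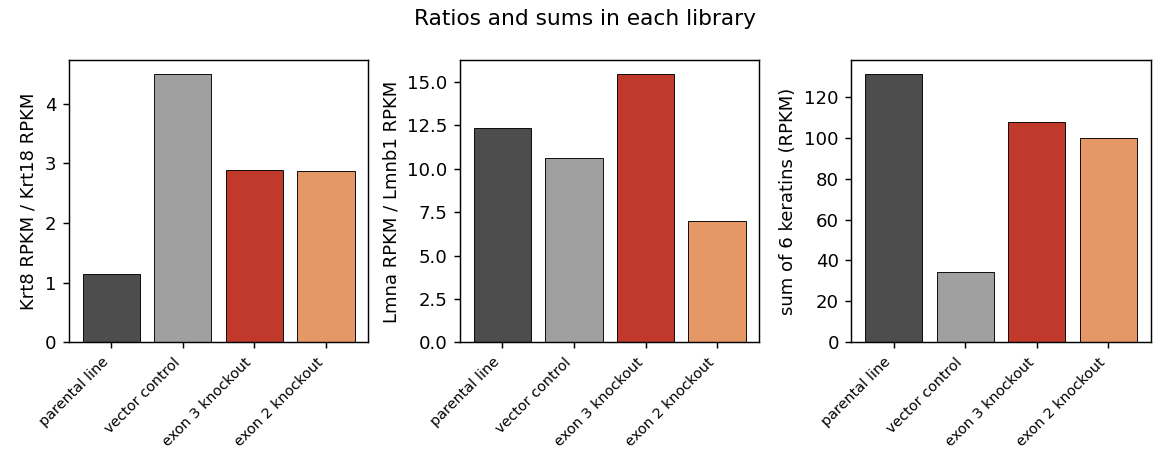
Bars give, for each library, the ratio of Krt8 to Krt18 RPKM, the ratio of Lmna to Lmnb1 RPKM, and the summed RPKM of Krt8, Krt18, Krt19, Krt7, Krt5 and Krt14. The keratin sum is lowest in vector cells (34.5) and the Lmna to Lmnb1 ratio is lowest in Ex2-KO (7.01).

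Krt7, a type II keratin of ducts and glands, was high in 1 of the 4 libraries. Its RPKM was 1.79 in parental cells (97 reads), 0.795 in vector cells (35 reads), 1.08 in Ex3-KO (44 reads) and 25.7 in Ex2-KO (1002 reads). Its level in Ex2-KO was 14.4 times that of parental cells, 32.4 times that of vector cells and 23.8 times that of Ex3-KO. The Wilson interval there was 24.2 to 27.4 RPKM, against at most 2.18 in the other libraries. Ex3-KO lay between the controls.

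Of all tested genes, 0.212% (23 genes) were at least 2-fold higher on the RPKM + 1 scale in Ex2-KO than in each of the other 3 libraries, and Krt7 was 1 of them. Its margin over the highest of the others, 3.26 on the log2(RPKM + 1) scale, ranked 1 among the 10871 tested genes. On the same scale, a difference of at least 2-fold between the 2 knockouts was seen for 1 of the 7 genes, again Krt7, where 4.99% of all tested genes had one. The comparison of groups gave 1.74 (SE 0.860, adjusted p = 0.295 in limma). With the robust prior of limma the SE was 1.77 (adjusted p = 0.677), as less of the spread was then taken from all genes. Without Ex2-KO the change was -0.11, without Ex3-KO 3.58, without parental cells 2.05 and without vector cells 1.42. No p is given for these fits of 3 libraries, in which limma takes the spread mostly from all genes: without parental cells the SE was 0.483 while the 2 knockouts differed by 3.68 on the log2(RPKM + 1) scale. Ex2-KO has 1 library, and its title names the cells 308 where the other 3 name 307, so guide, line and library cannot be told apart for this gene. The share of Krt7 in the keratin sum was 25.8% in Ex2-KO and between 1.01% and 2.30% in the others.

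Krt7 had the widest range of levels of the 7 tested genes, and the genes with the profile closest to it were Csn3, Tspan7 and Rbp4, by the Euclidean distance of log2(RPKM + 1) values centred on each gene's mean, over 4 libraries. Csn3, the milk protein kappa-casein, was at 5.69, 4.54, 4.99 and 35.1 RPKM in parental cells, vector cells, Ex3-KO and Ex2-KO (distance 0.936). Tspan7, a tetraspanin of the cell surface, was at 12.1, 3.02, 8.27 and 40.2 (distance 1.36), and Rbp4, the retinol-binding protein of plasma, at 0.130, 0.267, 0.173 and 4.34 (distance 1.37). Each was highest in Ex2-KO, which follows from the choice by likeness to Krt7, and Rbp4 reached a mean RPKM of 1 only through that library. The 6 luminal markers other than keratins summed to 1.75 RPKM in Ex2-KO, below the 2.02 to 3.31 RPKM of the other libraries. Elf3 (0.764), Cdh1 (0.117) and Cldn3 (0) were lowest in Ex2-KO, while Epcam (0.657) and Cldn7 (0.210) were highest in it. Ex3-KO was close to Ex2-KO for Cdh1 (0.128) and Epcam (0.629). Epcam was at 0.304 RPKM in parental cells and 0.374 in vector cells. The study also reports more Epcam RNA in the knockouts than in parental cells. With a mean RPKM below 1, Epcam was not tested here.

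Krt7, Krt8 and Krt18 lie in the keratin cluster of chromosome 15 (GRCm38), Krt7 from 101411043 to 101430313 on the plus strand, Krt8 from 101996698 to 102004482 on the minus strand and Krt18 from 102028180 to 102032027 on the plus strand. The table holds 24 protein-coding genes from Krt80 to Krt18. Of these, 4 had a mean RPKM of at least 1: Krt80 and Krt7 at one end, and Krt8 and Krt18 at the other. The 20 genes between them reached at most 0.269 RPKM, and 11 were at 0 in all libraries. Krt80, next to Krt7, was also highest in Ex2-KO, at 4.36 RPKM against 1.06 in parental cells, 0.724 in vector cells and 1.35 in Ex3-KO. Its change between groups was 0.91 (SE 0.451, adjusted p = 0.294 in limma).

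**Figure D4:**
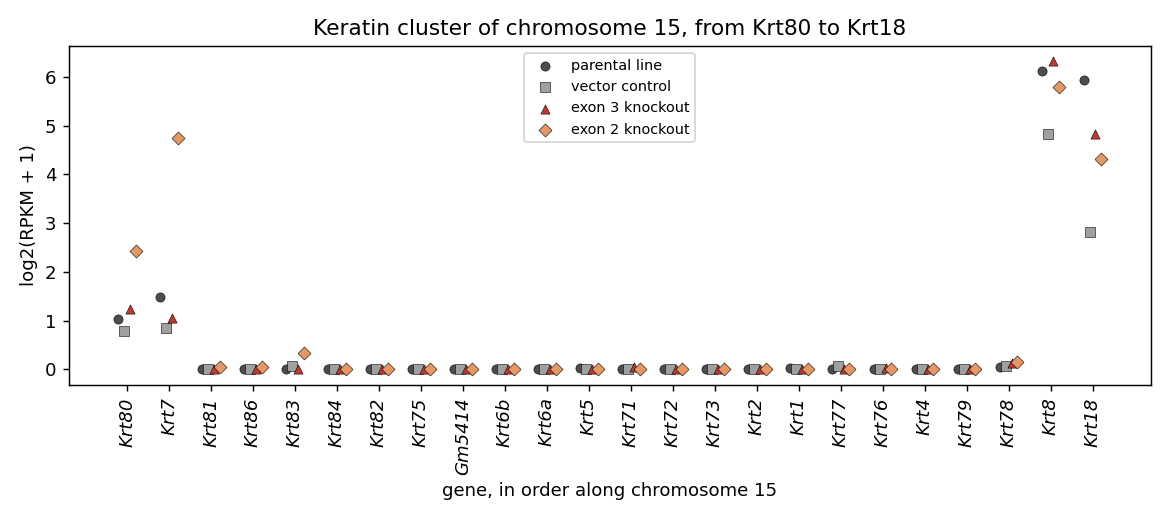
Level of the 24 protein-coding genes of the chromosome 15 keratin cluster in gene order, as log2(RPKM + 1), 1 point per library. Values above 1 RPKM in the mean are found only at the ends, and Krt80 and Krt7 are highest in Ex2-KO (4.36 and 25.7 RPKM).

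The 250 bases before the start annotated by RefSeq are shown for these 3 keratins, because they sit in 1 cluster, reach a mean RPKM of 1 and differ in their order of libraries. The sequences are from RefSeq on GRCm38.p6, read 5′ to 3′ on the strand of the gene, at chr15:101412153-101412402 for Krt7 (plus strand), chr15:102004343-102004592 for Krt8 (minus strand) and chr15:102027966-102028215 for Krt18 (plus strand). RefSeq and GENCODE place these starts differently, so the Krt7 window lies inside the GENCODE gene interval given above and the Krt8 and Krt18 windows overlap theirs. Capitals mark GGGCGG, the GC box bound by Sp family factors, on either strand.

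Krt7: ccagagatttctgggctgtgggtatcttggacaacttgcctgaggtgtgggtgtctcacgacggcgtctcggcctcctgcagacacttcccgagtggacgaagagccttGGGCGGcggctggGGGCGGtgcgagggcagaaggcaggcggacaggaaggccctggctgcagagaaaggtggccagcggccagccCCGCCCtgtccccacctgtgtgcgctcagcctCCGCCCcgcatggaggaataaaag

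Krt8: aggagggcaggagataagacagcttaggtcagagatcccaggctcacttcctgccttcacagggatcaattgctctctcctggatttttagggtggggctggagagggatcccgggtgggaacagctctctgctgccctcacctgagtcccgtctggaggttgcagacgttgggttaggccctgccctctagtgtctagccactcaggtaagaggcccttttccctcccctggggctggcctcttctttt

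Krt18: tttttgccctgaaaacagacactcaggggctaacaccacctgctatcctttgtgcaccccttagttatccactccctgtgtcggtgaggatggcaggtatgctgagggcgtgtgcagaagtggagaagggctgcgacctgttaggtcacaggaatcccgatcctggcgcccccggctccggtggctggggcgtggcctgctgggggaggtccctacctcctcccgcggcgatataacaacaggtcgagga

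Krt7 held 4 matches to GGGCGG and the others 0, where 32.7% of 32851 windows of this length before annotated starts held at least 1. The TATA box core TATAAA (12.4% of windows) and the AP-1 site TGANTCA (6.75% of windows), searched on both strands, had 0 matches in the 3 windows. G and C made up 66.0% of the Krt7 window, 58.0% of the Krt8 window and 60.4% of the Krt18 window.

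Of the remaining keratins, Krt19 and Krt14 lie on the minus strand of chromosome 11 (GRCm38, 100140810 to 100148665 and 100203162 to 100207548) and Krt5 inside the chromosome 15 cluster (101707070 to 101712898, minus strand). Krt19 had 4, 2, 2 and 4 reads in parental cells, vector cells, Ex3-KO and Ex2-KO, which is 0.147 RPKM or less. Krt14 had 4, 3, 3 and 5 reads, 0.153 RPKM or less. Krt5 had 1 read in parental cells and 0 reads in the other 3 libraries, where 0 reads allow up to 0.0981 RPKM (upper Wilson limit in Ex2-KO). The basal pair Krt5 and Krt14 was therefore at or near 0 in controls and knockouts, and no difference was detectable for these 3 genes at this depth. Over the whole table, 50 keratin genes were listed, of which 26 were at 0 in all 4 libraries and 5 had a mean RPKM of at least 1: Krt8, Krt18, Krt7, Krt80 and Krt10.

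Lamins line the inner nuclear membrane. The RNA of Lmna and Lmnb1 differed between lines of the same group at least as much as between groups. Lmna lies on chromosome 3 from 88480147 to 88509956 (GRCm38, minus strand). Lmna RPKM was 347 in parental cells, 446 in vector cells, 430 in Ex3-KO and 310.0 in Ex2-KO. Ex2-KO was lowest and vector cells highest, and the groups overlapped. The log2 change was -0.11 (SE 0.313, limma adjusted p = 0.875, and 0.447 to 0.990 over the alternatives), and it was 0.0076 after median ratio scaling and -0.36 after quantile normalization.

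Lmnb1 encodes lamin B1, a farnesylated lamin that is present in most nuclei. Its RPKM was 28.05 in parental cells, 41.9 in vector cells, 27.8 in Ex3-KO and 44.2 in Ex2-KO. Parental cells and Ex3-KO had overlapping Wilson intervals (26.7 to 29.5 and 26.2 to 29.4), as did vector cells and Ex2-KO (40.1 to 43.9 and 42.2 to 46.3). Lmnb1 thus lay at 2 levels, each shared by a control and a knockout. The log2 change was 0.03 (SE 0.346, 95% interval -0.73 to 0.79, limma adjusted p = 0.974), and -0.046 after the GC and length correction. Over the alternatives the adjusted p was between 0.691 and 0.976.

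The balance of A-type to B-type lamin RNA varied more between the knockouts than between the controls. Lmna RPKM was 12.4 times Lmnb1 RPKM in parental cells, 10.6 times in vector cells, 15.5 times in Ex3-KO and 7.01 times in Ex2-KO. The group means were 11.5 ± 1.22 in the controls and 11.2 ± 5.97 in the knockouts (SD, n = 2 each). On the log2(RPKM + 1) scale the ratio differed by -0.14 between groups, less than its spread within them (SD 0.569). Lmnb2, the gene of lamin B2, was at 11.5 and 11.1 RPKM in parental and vector cells and at 16.1 and 19.4 in Ex3-KO and Ex2-KO. Its change was 0.61 (SE 0.313, adjusted p = 0.313 in limma), and 0.49 after the GC and length correction. Set against Lmnb1 and Lmnb2 together, Lmna was 8.76 times as high in parental cells and 8.42 times in vector cells. This ratio was 9.79 in Ex3-KO and 4.88 in Ex2-KO, with group means of 8.59 ± 0.246 in the controls and 7.33 ± 3.47 in the knockouts.

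Other genes of the same structures were counted from lists. Of 20 other intermediate filament genes, 3 were tested (Krt10, Krt80 and Lmnb2) and 8 were at 0 in all libraries, among them Nefl, a neurofilament chain. The muscle filament gene Des (0.545 RPKM or less) and the glial filament gene Gfap (0.0505 or less) were low in every library. Of the 3 tested genes, limma gave 0 with an adjusted p under 0.05 and 0 with an unadjusted p under 0.05, and 2 (Krt80 and Lmnb2) had both knockouts above both controls, as 21.9% of all tested genes had.

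Of 14 genes for filament linkers and junction plaques, 10 were tested. Limma gave an adjusted p under 0.05 for 0 of these, while 2 (Dst and Macf1) had an unadjusted p under 0.05, beside 19.1% of all tested genes. Their median change was -0.36 against -0.08 for all tested genes, with 8 below 0 and 2 above, and it was -0.05 after the GC and length correction, against 0.05 for all tested genes. Both knockouts were below both controls for 3 of the 10 genes, close to the 31.2% of all tested genes. Dst, the plakin dystonin, was at 20.2 and 12.7 RPKM in parental and vector cells and at 2.82 and 7.75 in Ex3-KO and Ex2-KO, a change of -1.56 (SE 0.428, adjusted p = 0.130). Macf1, a plakin that links actin and microtubules, was at 10.4 and 11.0 RPKM in the controls and 4.12 and 5.76 in the knockouts, a change of -0.99 (SE 0.336, adjusted p = 0.173). The third was Pkp4, a plakophilin-related protein, at -0.38. Dst and Macf1 have recovered lengths of 28982 and 24282 bases, and after the GC and length correction they were at -0.59 and 0.13, and Pkp4 at -0.10.

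All 16 lamin partners and processing genes were tested, and limma gave an adjusted p under 0.05 for 0 of them, while 3 (Lemd2, Syne1 and Syne2) had an unadjusted p under 0.05, beside 19.1% of all tested genes. Both knockouts were below both controls for 7 and above both for 5, beside 31.2% and 21.9% of all tested genes. The median change was -0.27 against -0.08 for all tested genes, and 0.02 against 0.05 after the GC and length correction. Syne2, the giant nesprin that connects the nuclear envelope to the cytoskeleton, was at 9.70 and 9.47 RPKM in parental and vector cells and at 1.89 and 3.35 in Ex3-KO and Ex2-KO, a change of -1.58 (SE 0.357, adjusted p = 0.102). Syne1, its close relative, was at -0.94 (SE 0.363) and Lbr, the lamin B receptor, at -0.57 (SE 0.294). On the other side, Lemd2, a protein of the inner nuclear membrane, was at 35.5 and 21.7 RPKM in parental and vector cells and at 59.2 and 52.8 in Ex3-KO and Ex2-KO, a change of 0.98 (SE 0.328, adjusted p = 0.170). Emd, the gene of emerin, was at 0.64 (SE 0.304) and Banf1, a chromatin protein that binds emerin and its relatives, at 0.59 (SE 0.296). The GC and length correction brought Syne1 to -0.04, Syne2 to -0.68, Lbr to -0.43 and Banf1 to 0.24, with Lemd2 at 0.88 and Emd at 0.66.

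**Figure D5:**
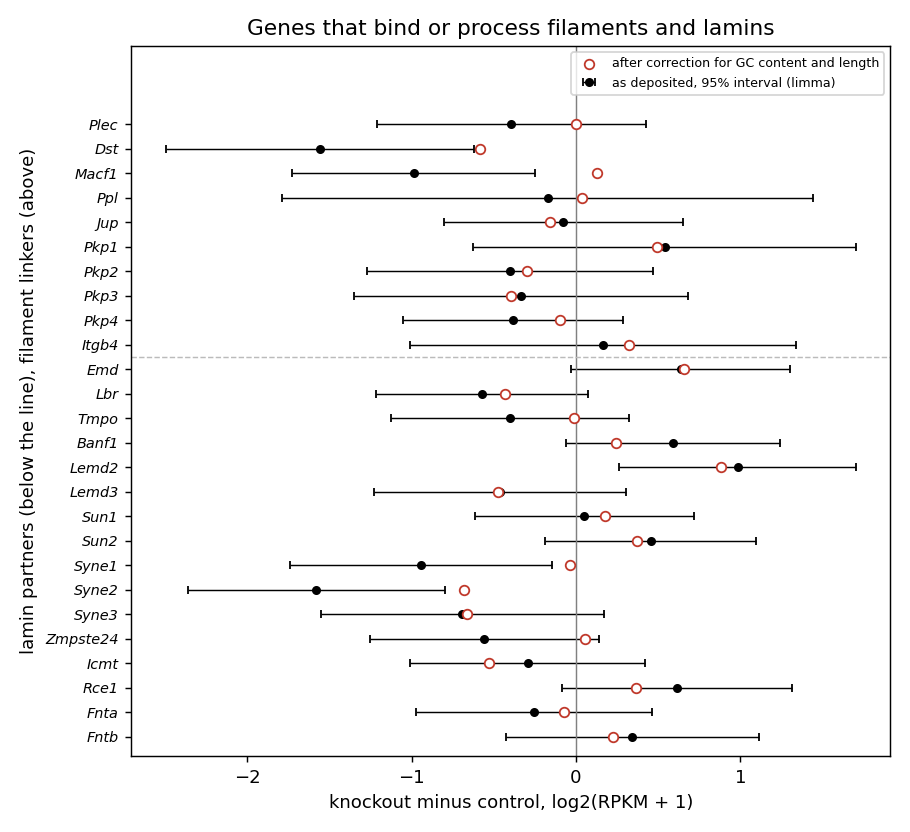
Knockout minus control difference in log2(RPKM + 1) for 10 filament linker genes (above the dashed line) and 16 lamin partner genes (below it). Black points are the limma estimates with 95% intervals, and open circles the values after correction for GC content and length, which lie near 0 for Macf1 (0.13) and Syne1 (-0.04).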

How the data were processed

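The authors deposited 1 table of RPKM values for the 4 libraries, with 1 column each, no log scale and no pooling. The submitters' processing notes name CASAVA 1.8, GSNAP and GRCm38 without their roles, and the gene model and the counting of shared reads are not given in the sources used here. The labels name a stranded library kit, while the study's methods name a TruSeq RNA kit and state no strandedness. Columns were matched to libraries by their descriptions, and 0 were left unmatched.

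Reads were recovered from the RPKM values. With coding lengths of GENCODE M21, values of genes with 1 read gave the total behind each column (316 to 402 genes per library), after which 100% of 15405 genes above 0 came out as whole reads in all 4 libraries (tolerance 0.001 reads). The scale rests on these lengths, and 55.4% of the genes matched an annotated one. The lengths used for Krt18, Krt7 and Lmna (1761, 1734 and 2039 bases) matched no single annotated length and were taken from the values. The read counts and Wilson intervals of these genes rest on those lengths. Keratins resemble each other, Krt8 has 1 annotated processed pseudogene, and Krt7, Krt8 and Krt5 overlap genes on the opposite strand that are not in the table.

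Genes with mean RPKM of at least 1 were tested with limma 3.58.1 (R 4.3.3, intensity trend, no covariates) on log2(RPKM + 1), with Benjamini-Hochberg adjustment over all tested genes. The pseudocount of 1 makes a difference understate the change of low genes. GC content and length were corrected by splines with 4 degrees of freedom in each library. Other steps used Python 3.11.15, pandas 2.3.3 and scipy 1.17.1. The genes and lists were chosen with earlier results of these data known. Named genes were the 10 members, up to 3 genes per list and direction with the largest smallest change over the 4 knockout-to-control pairs, and the 3 profiles nearest to the member with the largest range. Alternatives were a pseudocount of 0.1, median ratio scaling, quantile normalization, other filters, limma without a trend, with a robust prior or with voom on the recovered reads, the GC and length correction, and leaving out each library.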

Additional observations from a re-analysis of the deposited data

Results flagged for a closer look

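Lmnb1 drew attention because the knockouts lay on opposite sides of both controls, with Ex2-KO above and Ex3-KO below. The log2(RPKM + 1) value of Ex2-KO minus that of Ex3-KO was 0.65. Ex3-KO was within counting error of parental cells, and Ex2-KO within counting error of vector cells. This difference was not tested, since 1 library stands for each knockout. Among all tested genes, 857 (7.88%) had the knockouts on opposite sides of both controls.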

How the results depend on the processing

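Limma called 2 genes between knockouts and controls, and this count was 1 with a pseudocount of 0.1, 0 after median ratio scaling, 1 after quantile normalization, 0 with no filter, 32 with a mean RPKM filter of 5, 285 with a robust prior, 0 with voom on recovered reads and 0 after the GC and length correction. Leaving out 1 library gave between 3 genes (without Ex2-KO) and 788 (without the parental cells), with 451 without vector cells and 4 without Ex3-KO. None of the 7 filament and lamin genes (0) passed in any setting with all 4 libraries. Leaving out a library gave from 0 to 3 of them, the 3 being Krt8, Krt18 and Krt7 without the parental cells, in fits whose spread comes mostly from all genes. The count of genes whose groups do not overlap, 2 in the full data, lay between 3 and 6 when a library was left out, where fewer comparisons have to agree in side, and was 3 after quantile normalization. Median ratio scaling shifted the median change of all genes by 0.10, quantile normalization by 0.12 and the GC and length correction by 0.13. Lmna was at 0.0076 after median ratio scaling and Lmnb1 at -0.046 after the GC and length correction. With a library left out, the log2 change ran from -1.36 to 1.75 for Krt18, -0.069 to 1.23 for Krt8, -0.11 to 3.58 for Krt7, -0.34 to 0.13 for Lmna and -0.29 to 0.36 for Lmnb1, each with both signs, while Vim (-0.71 to -0.37) and Nes (-0.90 to -0.35) kept theirs. The ratio of Krt8 to Krt18 ran from -0.52 to 1.29 and that of Lmna to Lmnb1 from -0.70 to 0.42. No paired analysis was possible, because each library came from a different line and the labels pair no knockout with a control.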

Other observations

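Genes of the linker and junction list differed between the controls in both directions, and those named here were singled out after their values were seen. Ppl (periplakin) was at 10.1 RPKM in parental cells, 1.11 in vector cells, 1.19 in Ex3-KO and 7.45 in Ex2-KO. Itgb4, the integrin chain of hemidesmosomes, was at 2.96, 0.203, 1.03 and 1.95 in the same order, and Pkp3, a plakophilin of desmosomes, at 3.03, 0.912, 0.714 and 1.83. In the other direction, Pkp2 was at 12.6 RPKM in parental cells and 23.2 in vector cells, and Pkp4 at 31.8 and 40.1. Pkp1, another plakophilin, was highest in Ex2-KO, as Krt7 was, with 1.73, 0.630, 0.740 and 4.40 RPKM. Plec, the plectin that ties filaments to other structures, was at 51.8 RPKM in parental cells and between 24.2 and 27.8 in the other 3 libraries. None of these 7 genes was called between knockouts and controls in limma (0 at an adjusted p under 0.05 and 0 at an unadjusted p under 0.05).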
